A study of Mus musculus with 12 samples.

Results

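The pore-forming alpha subunits of voltage-gated calcium channels were followed through the amygdala of individual mice that differed in anxiety-like behavior. The members were 8 genes, chosen by symbol through their Ensembl identifiers in GENCODE M21, out of 47729 genes in the deposited table, and all 8 were among the 26963 genes tested. They were Cacna1a, Cacna1b and Cacna1e of the Cav2 class, Cacna1c and Cacna1d of the Cav1 class, and Cacna1g, Cacna1h and Cacna1i of the Cav3 class. The animals were female C57/BL6 mice, an inbred strain, and the labels name no drug, transgene or deletion. They were tested in the elevated plus maze (EPM) at 9 weeks of age, the light/dark box (LD) at 10 weeks and the social interaction test (SIT) at 11 weeks. Both amygdalae of a mouse were then dissected and made into 1 stranded mRNA library per mouse. The labels place 3 mice in the less anxious group (mice 3, 7 and 12), 4 in the anxious group (mice 1, 4, 8 and 11) and 4 in the more anxious group (mice 2, 6, 9 and 10), while mouse 5 has no group. The study set these groups from a principal component of the same expression data, so a difference between them is not independent of expression, while the behavior measures were taken without it.

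Voltage-gated calcium channels open when a membrane is depolarized and let calcium into the cell. The alpha subunit forms the pore and senses voltage, and beta and alpha2delta subunits help carry it to the membrane. Cav2 channels sit mostly at nerve terminals and trigger transmitter release, Cav1 (L-type) channels couple activity to gene expression, and Cav3 (T-type) channels open near rest and shape burst firing. In the amygdala, calcium entry of these kinds takes part in synaptic plasticity and fear learning.

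Total estimated counts ran from 31745630 to 45142355 over the 11 grouped mice, with group medians of 37055198 (less anxious), 36205614.5 (anxious) and 40644746.5 (more anxious). Mouse 5 had a total of 32682574, within that range, but reads on 23768 genes against 26378 to 28196 in the other mice. In bulk tissue, fewer cells of a type and less RNA per cell cannot be told apart. Summed astrocyte markers were 870 to 1074 CPM (counts scaled by library size) in less anxious and 651 to 825 CPM in more anxious mice. All 4 (Aqp4, Gfap, Aldh1l1 and Slc1a3) were detected, the lowest, Aldh1l1, at a mean of 47.1 CPM, and 4 of 4 were lower in more anxious mice, 1 of them at an unadjusted p under 0.05. Endothelial markers (3 of 3 lower) summed to 80.4 to 122 CPM against 54.4 to 75.1 CPM, without overlap. Choroid plexus markers, near the floor at means of 0.268 to 2.64 CPM, summed to 5.20 to 9.86 CPM against 2.08 to 4.85 CPM. Of these, Kcnj13, which the study also named as lower, had a change of -3.26 (unadjusted p = 0.00227, edgeR). Ttr had a change of -0.41 and Folr1 of 0.81. Striatal markers (6 of 6 lower, 0 at an unadjusted p under 0.05) summed to 181 to 529 CPM against 129 to 358 CPM. The 4 neuronal markers summed to 4436 to 4938 CPM against 4351 to 5322 CPM, 3 of them higher, 2 of these at an unadjusted p under 0.05, with the fourth (Map2) lower at that threshold. The excitatory marker Slc17a7 was higher (0.44 on the log2 scale, SE 0.17, unadjusted p = 0.0249, edgeR) and Slc17a6 had a change of -0.09. All 3 inhibitory markers had a change below 0, none at an unadjusted p under 0.05. Oligodendrocyte and microglia markers were each 4 of 4 below 0, with 1 of each at that threshold. No marker was called after adjustment. Thalamic markers, which would mark tissue outside the amygdala, summed to at most 14.7 CPM in any mouse, and Gbx2 was at a mean of 0.195 CPM. Striatal markers, also of tissue outside it, ran from 124 to 529 CPM over the 11 mice. Pituitary markers (Prl, Gh and Pomc) summed to 2.08 to 3.62, 1.88 to 55.7 and 1.11 to 1.63 CPM in less anxious, anxious and more anxious mice. The share of tissue from outside the amygdala was not tested. Basolateral amygdala markers summed to 219 to 473 CPM and central amygdala markers to 175 to 366 CPM over the 11 mice. Most of these sums came from Lmo3 (mean 288 CPM) and Wfs1 (mean 213 CPM). Etv1 was at a mean of 69.3 CPM, and Rspo2, Prkcd, Tac2 and Crh were at 12.0, 13.6, 15.3 and 5.48 CPM. The markers were thus detected, but the sums do not show how much of the tissue was amygdala. The part of these cell type differences in the results was not tested.

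Promoter sequence is shown for 3 members that behaved differently in the comparisons that follow: Cacna1b, the partner of Cacna1a at nerve terminals, Cacna1i, with the second largest change, and Cacna1e, the most abundant member. The RefSeq promoter table (GRCm38.p6) matched 5 of the 8 members and held no entry for Cacna1a, Cacna1g and Cacna1h. Each sequence is the 250 bases before the annotated start, 5′ to 3′ on the gene's strand, at chr2:24763153-24763402 (minus strand, Cacna1b), chr15:80286988-80287237 (plus strand, Cacna1i) and chr1:154725921-154726170 (minus strand, Cacna1e). Capitals mark the GC box letters GGGCGG or their reverse complement CCGCCC, a motif bound by SP1-type factors.
Cacna1b: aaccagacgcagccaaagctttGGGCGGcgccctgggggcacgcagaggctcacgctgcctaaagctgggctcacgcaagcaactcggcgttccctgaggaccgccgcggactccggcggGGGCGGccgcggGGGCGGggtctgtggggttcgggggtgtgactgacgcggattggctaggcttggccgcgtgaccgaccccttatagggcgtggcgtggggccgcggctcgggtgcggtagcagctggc
Cacna1i: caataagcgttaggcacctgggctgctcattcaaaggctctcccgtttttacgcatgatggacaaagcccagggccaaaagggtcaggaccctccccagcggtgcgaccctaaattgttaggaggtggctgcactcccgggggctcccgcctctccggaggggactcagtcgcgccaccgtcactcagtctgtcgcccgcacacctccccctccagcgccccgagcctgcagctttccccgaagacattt
Cacna1e: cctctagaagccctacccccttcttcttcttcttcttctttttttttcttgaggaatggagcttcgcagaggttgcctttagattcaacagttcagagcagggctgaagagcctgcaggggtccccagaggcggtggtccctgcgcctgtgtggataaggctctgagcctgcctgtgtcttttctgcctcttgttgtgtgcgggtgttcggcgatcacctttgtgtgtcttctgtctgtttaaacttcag
The Cacna1b window was 72% GC with 29 CpG pairs and 3 GC box matches. That of Cacna1i was 62.4% GC with 16 CpG pairs, and that of Cacna1e 52% GC with 6 CpG pairs, and neither held the GC box letters. Over all 32851 windows of this length, the median was 52.4% GC and 6 CpG pairs, and 32.7% held a GC box match on either strand. None of the 3 windows held TGACGTCA (the CRE, in 1.55% of windows), CACGTG (an E-box, 6.02%) or TATAAA on either strand (the TATA box, 12.4%). The Cacna1e window does not lie at the end of the GENCODE gene (154884501), and the counts are per gene, so they do not tell which start was used.

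Cacna1e encodes Cav2.3, the R-type channel. It had the highest level of the 8 genes, 405 ± 34.8 CPM (SD, n = 11), and per kb of merged exon length it was at 16.1 ± 1.38 CPM per kb. On the per-kb scale it lay above Cacna1b in 11 of 11 mice, but in mouse 9 Cacna1a (22.3 CPM per kb) was above it (14.1). Cacna1b (12.8 ± 1.68 CPM per kb), Cacna1a (10.9 ± 5.03) and Cacna1g (10.5 ± 0.954) came next. Among these 3, neighbours in the order did not differ beyond the larger SD of the pair. Cacna1h followed at 8.24 ± 1.18 CPM per kb, below Cacna1g in 11 of 11 mice and above Cacna1i in 10. Cacna1i (6.58 ± 1.44), Cacna1d (5.59 ± 0.269) and Cacna1c (5.11 ± 0.612) were lowest, and those 3 did not differ from the next in order beyond their spread. With the longest transcript as the length, Cacna1a moved above Cacna1b (15.7 against 13.1 CPM per kb) and Cacna1c above Cacna1d and Cacna1i (8.23 against 7.31 and 6.63). Cacna1e stayed first on that scale, at 27.1 CPM per kb. Over the 11 mice, groups pooled, the coefficient of variation was 46.3% for Cacna1a, 21.8% for Cacna1i and 4.81% for Cacna1d, the lowest of the 8. Within groups, Cacna1a was not the most variable everywhere: in less anxious mice it was at 26.1% and Cacna1b at 26.7%, and in anxious mice it was at 21.6% and Cacna1i at 29.9%.

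**Figure D1:**
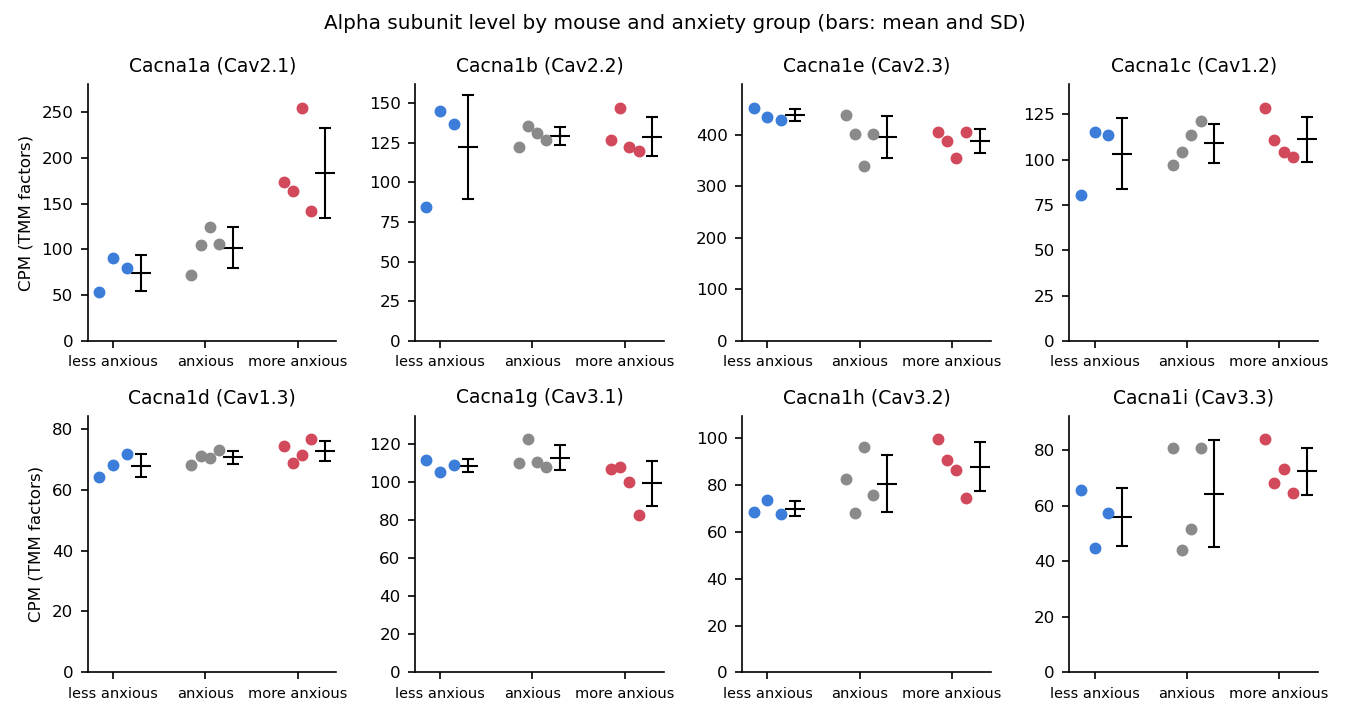
CPM with TMM factors (y axis, from 0) of each of the 8 alpha subunit genes in each mouse of the less anxious (n = 3), anxious (n = 4) and more anxious (n = 4) groups. Points are mice and bars are the group mean and SD. Cacna1a lay between 53.0 and 90.9 CPM in less anxious and between 142 and 255 CPM in more anxious mice, while the groups overlapped for Cacna1b and Cacna1d.

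Cacna1a, which encodes the Cav2.1 (P/Q-type) channel of fast synapses, showed the largest difference of the 8 members between the groups. Its level was 53.0, 90.9 and 79.5 CPM in the less anxious mice 3, 7 and 12. It was 71.8, 105, 125 and 106 CPM in the anxious mice 1, 4, 8 and 11, and 174, 164, 255 and 142 CPM in the more anxious mice 2, 6, 9 and 10. All 4 more anxious mice therefore lay above all 7 others, and the less anxious and anxious mice overlapped. The group means were 74.4 ± 19.4, 102 ± 22.0 and 184 ± 49.4 CPM (SD). The fitted change from less to more anxious was 1.29 on the log2 scale (SE 0.25, 95% interval 0.72 to 1.85), a fold of 2.44. It did not pass in the quasi-likelihood test of edgeR after Benjamini-Hochberg adjustment across the whole table (unadjusted p = 0.000512, adjusted p = 0.161). DESeq2's test of the same model did pass it, with an adjusted p of 2.83e-05, and with one of 1.75e-05 for any change across the 3 groups (0.339 in edgeR). From anxious to more anxious the change was 0.88 (SE 0.23), with an adjusted p of 0.999 in edgeR and 0.0245 in DESeq2. The study itself picked Cacna1a out of these libraries as a gene of its opioid signaling list. That list came from genes it had called by DESeq2's likelihood ratio test with PC1 as covariate. The DESeq2 result for any change used the same kind of test on the same mice. Neither it nor the direction of Cacna1a here is independent evidence. Without mouse 9, the more anxious mouse with the highest level, the change from less to more anxious was 0.98.

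No member was called by edgeR between more and less anxious mice, where 0.0445% of all genes were called (12 of 26963). At an unadjusted p under 0.05, 3 of 8 members passed, all higher in more anxious mice, against 8.83% of all genes (2382) and 5.21% in that direction. DESeq2 called 1 member, Cacna1a, against 1.63% of its genes. For any change across the groups, edgeR called 0 members (0.00742% of all genes, 2 genes) and 2 passed at an unadjusted p under 0.05 (6.35% of all), while DESeq2 called 1 (1.36%). Between anxious and less anxious mice, 0 members were called by edgeR (0.00371% of all genes) or DESeq2 (0.0361%), and 0 had an unadjusted p under 0.05 (4.74% of all). Between more anxious and anxious mice, edgeR called 0 members and 0% of all genes, 1 member (Cacna1a) had an unadjusted p under 0.05 (1231 genes, 4.57% of all), and DESeq2 called that one (0.139% of all). The median log2 change from less to more anxious was 0.09 over the 8 members and 0.00 over all genes. More anxious and less anxious mice did not overlap for 3 members (Cacna1a and Cacna1h above, Cacna1e below), against 8.4% of all genes.

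The other Cav2 genes differed less between the groups. Cacna1b encodes Cav2.2, the N-type channel that works beside Cav2.1 at nerve terminals. It stood at 84.8, 145 and 137 CPM in the less anxious mice, at 122 to 136 CPM in the anxious mice and at 127, 147, 122 and 120 CPM in the more anxious mice. The groups overlapped throughout, and mouse 3 was the lowest of the 11. The change from less to more anxious was 0.03 (SE 0.12, 95% interval -0.22 to 0.29). Cacna1e was at 453, 436 and 430 CPM in the less anxious mice, at 339 to 439 CPM in the anxious mice and at 405, 388, 355 and 405 CPM in the more anxious mice. Every more anxious mouse was below every less anxious one, and the fitted change was -0.16 (SE 0.10, unadjusted p = 0.127, adjusted p = 0.706 in edgeR's test).

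Because the reads of both genes come from the same libraries, the ratio of Cacna1a to Cacna1b reads does not depend on size factors. It does not correct for GC content, which was 58.4% for Cacna1a and 52.9% for Cacna1b in the longest transcript. The pair was chosen after the values were seen, and no test is given. The ratio was 0.611 ± 0.0254 (SD, n = 3) in less anxious mice, with a range of 0.582 to 0.626. It was 0.787 ± 0.152 in anxious mice (0.586 to 0.949) and 1.44 ± 0.444 in more anxious mice (1.11 to 2.08). Cacna1b reads thus outnumbered Cacna1a reads in all 7 less anxious and anxious mice, and the order was the other way round in all 4 more anxious mice. The other 7 members summed to 967 ± 34.1, 962 ± 39.4 and 961 ± 52.1 CPM in less anxious, anxious and more anxious mice. Means within this sum went both ways, since Cacna1e, its largest part, was at 439 CPM in less and 388 CPM in more anxious mice, while Cacna1h was at 70.0 and 87.9 CPM and Cacna1i at 55.8 and 72.3 CPM. On the per-kb scale, the share of Cacna1a among the 8 genes was 9.23% ± 1.88 in less anxious, 12.0% ± 2.54 in anxious and 19.6% ± 4.39 in more anxious mice.

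**Figure D2:**
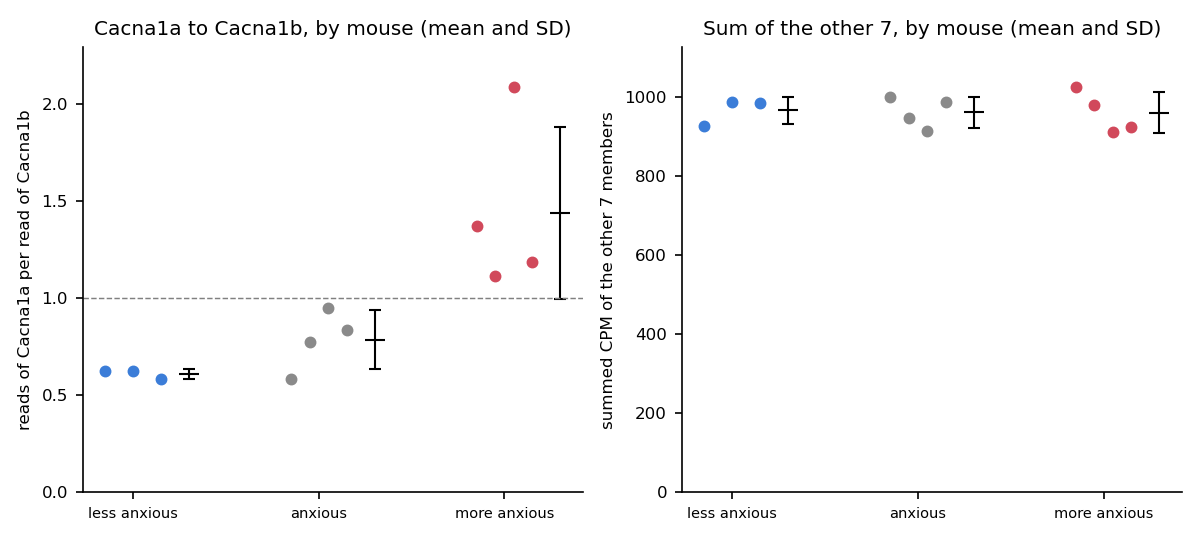
Left, reads of Cacna1a per read of Cacna1b in each mouse (y axis, ratio from 0), by anxiety group, with the dashed line at equal reads. Right, the summed CPM of the other 7 alpha subunit genes. Points are mice, and bars are the group mean and SD. The 4 more anxious mice lie above 1 on the left. The sums on the right overlap, at 928 to 988 CPM in less anxious, 913 to 999 CPM in anxious and 912 to 1025 CPM in more anxious mice.

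The Cav1 genes differed little between the groups. Cacna1c encodes Cav1.2, the main L-type channel of brain and heart, and was at 80.6, 116 and 114 CPM in less anxious, 97.0 to 121 CPM in anxious and 101 to 129 CPM in more anxious mice. Its change from less to more anxious was 0.08 (SE 0.12, 95% interval -0.19 to 0.35). Cacna1d encodes Cav1.3, an L-type channel that opens at lower voltage, and held within 64.1 to 76.5 CPM over all 11 mice. Its change was 0.10 (SE 0.08, 95% interval -0.08 to 0.28). The groups overlapped for both genes.

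The 3 T-type genes had changes of both signs, and none was called. Cacna1h (Cav3.2) was at 68.5, 73.8 and 67.7 CPM in the less anxious mice, at 82.8, 68.1, 96.3 and 75.7 CPM in the anxious mice and at 99.6, 90.9, 86.5 and 74.5 CPM in the more anxious mice. The more anxious mice were all above the less anxious ones, the closest by under 1 CPM. Its change was 0.29 (SE 0.12, unadjusted p = 0.0250, adjusted p = 0.476 in edgeR's test). Cacna1i (Cav3.3) was at 65.4, 44.7 and 57.2 CPM, then 80.5, 43.99, 51.7 and 80.8 CPM, then 83.8, 68.02, 73.0 and 64.5 CPM in the same order of groups and mice. Its anxious mice split between values near the lowest and near the highest of the series, and the outer groups overlapped. The change was 0.49 (SE 0.17, unadjusted p = 0.0128, adjusted p = 0.412 in edgeR's test). Cacna1g (Cav3.1) was at 105 to 112 CPM in less anxious, 108 to 122 CPM in anxious and 107, 108, 100 and 82.4 CPM in more anxious mice. The more anxious mice were all below the anxious ones, so that 2 of 8 members, with Cacna1a, did not overlap between these groups, against 2.5% of all genes. The step from 108.0 in the lowest anxious to 107.8 in the highest more anxious mouse was small, and the change from less to more anxious was -0.14 (SE 0.10, adjusted p = 0.749 in edgeR's test). No member separated anxious from less anxious mice (0 of 8, with 5.5% of all genes).

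GC content moved with the groups. The median log2 change from less to more anxious was -0.08 for genes under 40% GC, 0.10 for the 2027 genes from 56 to 60% GC and 0.55 for the 86 genes over 64%. Cacna1a (58.4% GC in its longest transcript), Cacna1g (58.1%), Cacna1h (59.95%) and Cacna1i (59.3%) share the bin from 56 to 60%. Within it, Cacna1a lay above 99.6% of genes, Cacna1i above 94.1%, Cacna1h above 82.5% and Cacna1g above 12.8%. With a per-mouse GC offset, the change of Cacna1a was 1.17 (unadjusted p = 0.000181, adjusted p = 0.139 in edgeR's test). The same offset took Cacna1h from 0.29 to 0.14 (unadjusted p = 0.287), Cacna1i from 0.49 to 0.36 (unadjusted p = 0.0893) and Cacna1g from -0.14 to -0.24 (unadjusted p = 0.0365), all in the edgeR fit. With the offset, Cacna1h and Cacna1i no longer had an unadjusted p under 0.05, Cacna1g did, and the change of Cacna1a was 1.17 against 1.29 without it. The part of GC content in these changes was not tested.

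**Figure D3:**
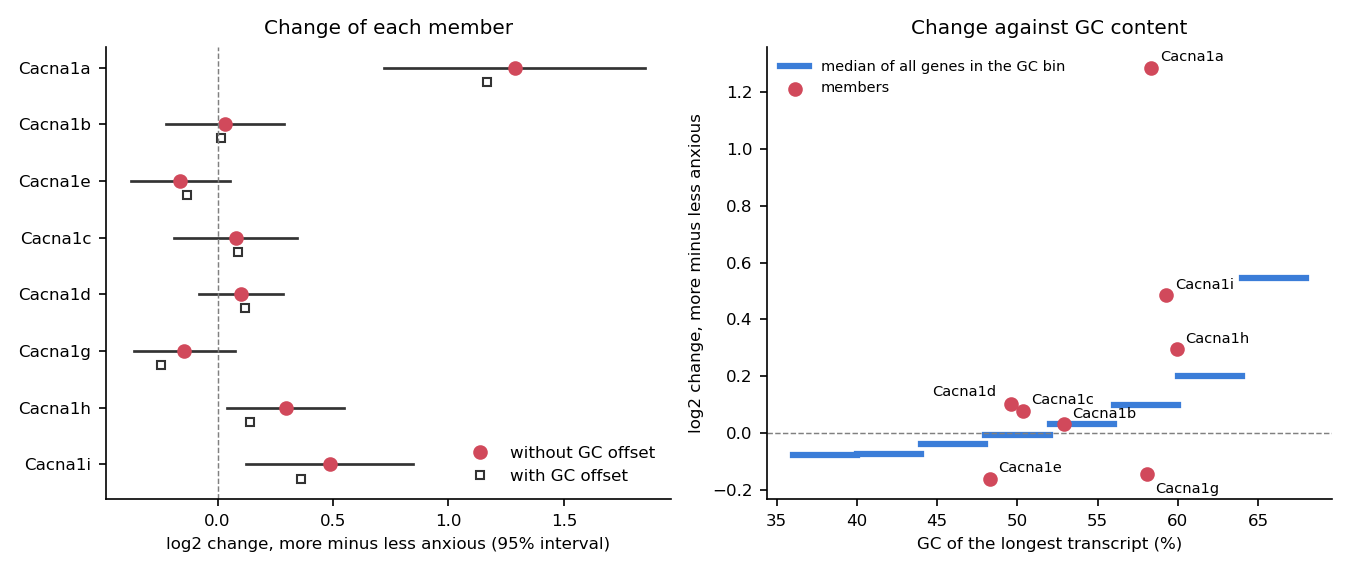
Left, fitted log2 change from less to more anxious for each member (x axis), with the 95% interval of the fit without a GC offset as a line and the value with the offset as an open square. Right, the same change against GC content of the longest transcript (x axis, %), with blue bars for the median of all genes in each GC bin; the outer bins are open-ended and drawn from 36% and to 68%. Cacna1a stands at 1.29 in a bin whose median is 0.10.

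Genes that overlap exons of the members had few reads. The antisense gene Gm16183 shares 435 bases of exon with Cacna1a and had at most 46 reads in a mouse, where Cacna1a had at least 1907. Chdh shares 589 bases with Cacna1d and had at most 195 reads, and Tpsg1 shares 158 bases with Cacna1h and had at most 6. The library kit marks strand, but the use of strand in counting is not given in the sources used here. Of the genes beside Cacna1a on chromosome 8 (84388440 to 84640246, GRCm38), Ccdc130 had a change of -0.09 (SE 0.13) and Ier2 of 0.57 (SE 0.31, unadjusted p = 0.0943 in edgeR's test).

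The partner genes of the channels were tested in the same fit. Of 26 genes that encode beta, alpha2delta and gamma subunits or TARPs, presynaptic scaffolds and the NALCN leak channel complex, 0 were called by edgeR from less to more anxious. At an unadjusted p under 0.05, 2 were higher and 2 lower, beside 8.83% of all genes in either direction, and the median change was -0.02. Those higher were Cacng7, a TARP (0.33, SE 0.13, unadjusted p = 0.0265 in edgeR's test), and Fam155a, which helps the NALCN channel to the membrane (0.26, SE 0.09, unadjusted p = 0.0120, edgeR). The lower pair were Cacna2d3, an alpha2delta subunit (-0.23, SE 0.11, unadjusted p = 0.0484, edgeR), and Rims3, of the RIM family of active zone proteins (-0.39, SE 0.14, unadjusted p = 0.0170, edgeR). All 4 alpha2delta genes had a change below 0, as 49.5% of all genes did. The beta subunit genes with the lowest p-values for any change across the groups, Cacnb3 (0.18, SE 0.11) and Cacnb1 (0.16, SE 0.09), did not pass at an unadjusted p under 0.05. Neither did Cacna2d2 (-0.06, SE 0.21), the TARP gene Cacng8 (0.28, SE 0.15), the scaffold gene Tspoap1 (0.17, SE 0.11) or Nalcn itself (-0.20, SE 0.10). The remaining alpha subunits of retina and muscle were near the floor, Cacna1f at 0.669 and 1.27 CPM in less and more anxious mice (change 0.99, SE 0.41, unadjusted p = 0.0288, adjusted p = 0.495 in edgeR's test) and Cacna1s at 0.840 and 1.16 CPM (0.55, SE 0.30, unadjusted p = 0.0860, edgeR).

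Over the 11 mice, r was far from 0 for a few pairs of members. As a description, the largest Pearson r of log2 CPM was 0.763, for Cacna1b with Cacna1c, and the lowest was -0.750, for Cacna1a with Cacna1e. Without mouse 3, which was lowest in both genes, r of Cacna1b with Cacna1c was 0.296, while that of Cacna1a with Cacna1e was -0.680. These mice share the group differences and the depth of their libraries, and no p is given. The genes most like Cacna1a among the 15890 others at a mean of at least 1 CPM were Tmem191c (r = 0.986), Pcsk1n (0.979) and C1qtnf4 (0.977). Of these, Pcsk1n, which encodes the precursor of an inhibitor of a prohormone convertase, was called from less to more anxious (1.33, adjusted p = 0.0389 in edgeR's test). It was picked by its likeness to Cacna1a over the same mice, so its call is not a separate result. The genes most like Cacna1b were Gdpd5 (r = 0.943) and Kdm2a (0.935), and their changes were 0.05 and -0.09. Cacna1e was closest to B230334C09Rik (r = 0.976), Cacna1c to Cpne1 (0.943), Cacna1h to Kat5 (0.937), Cacna1i to L3mbtl1 (0.928), Cacna1d to Ptpn21 (0.916) and Cacna1g to AI467606 (0.901). The next for these were Gm20691 for Cacna1b (0.932), Srrm1 and Tenm4 for Cacna1c (0.938 and 0.916), Gm15411 and Phtf1os for Cacna1d (0.907 and 0.901), and Amot and Pigg for Cacna1e (0.945 and 0.933). For the T-type genes they were Tppp3 and Gjb6 for Cacna1g (0.899 and 0.892), Rps6kb2 and Pabpn1 for Cacna1h (0.933 and 0.920), and Zscan25 and Baz2b for Cacna1i (0.891 and 0.887). With a mouse left out, r stayed at 0.964 or more for the 3 genes like Cacna1a, but fell to 0.663 for Gm20691 with Cacna1b (without mouse 3) and to 0.595 for AI467606 with Cacna1g (without mouse 10).

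The behavior measures were set against each member as a slope per SD of the measure. The SD was that of the mice in each fit, so it changed when a mouse was left out or added. Slopes from such fits are therefore not in the same unit. No member was called by edgeR for any of the 7 measures. Of all genes, edgeR called 0.00742% for the percentage of time in the light, 0% for the distance run there as a percentage, 0% for the percentage of open-arm time and 0% for total EPM entries. The box:zone ratio of the SIT, named so in the labels, is a measure of approach to another mouse. For it, edgeR called 0.015% of genes after 3 min, 0.0111% after 5 and 0.0223% after 10 min. At an unadjusted p under 0.05, 0 of 8 members passed for the LD and EPM measures (3.55%, 5.8%, 5.84% and 6.97% of all genes in the order above), while 1 passed for the first SIT ratio (7.65%), 2 for the next (6.56%) and 2 for the last (8.05%). DESeq2 called 0 members for 6 of the measures (0.0688% of its genes for light time, 0.127% for light distance, 0.181% for open-arm time, 0.244% for entries, 0.986% at 3 min and 0.197% at 5 min) and 1 at 10 min, Cacna1b (0.58%).

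**Figure D4:**
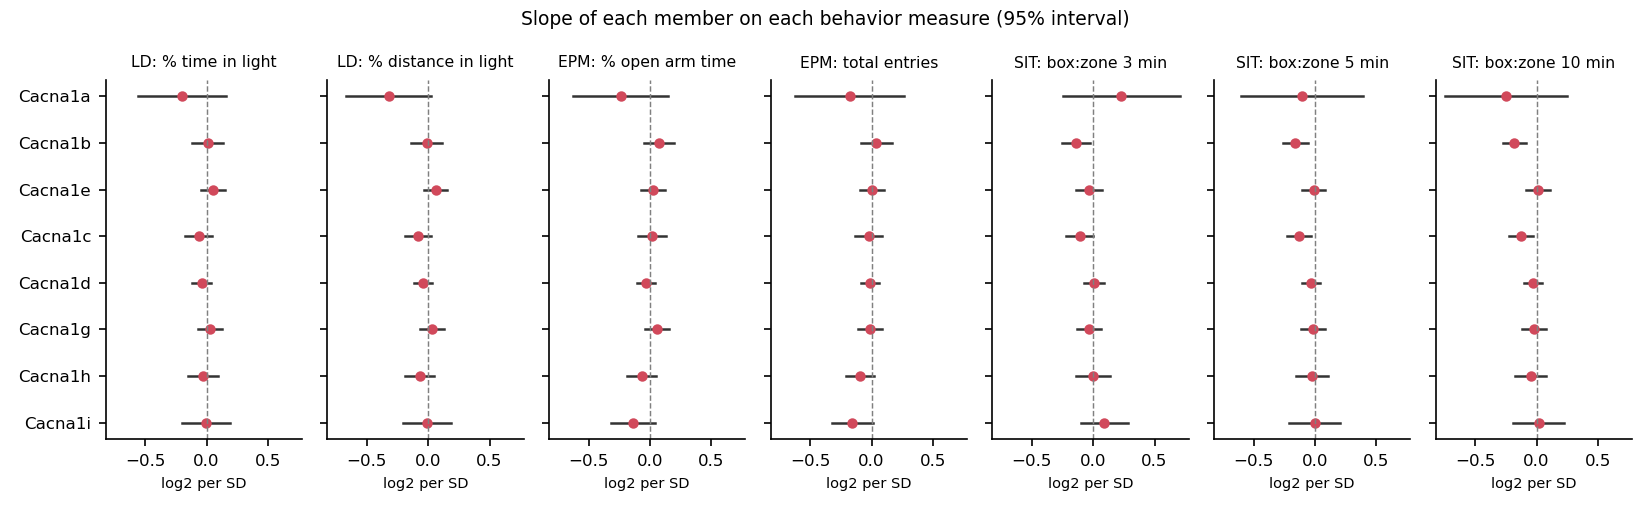
Fitted slope of each member's log2 level per SD of each behavior measure (x axis), 1 panel per measure of the LD, EPM and SIT, with 95% intervals as lines. All 11 grouped mice enter, 10 of them at 3 min. The intervals of Cacna1a are the widest and cross 0 in every panel, and those of Cacna1b lie below 0 in the 3 SIT panels.

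Cacna1a had a slope of -0.20 per SD of light time (SE 0.16, adjusted p = 0.9997 in edgeR's test) and of -0.32 per SD of light distance (SE 0.15, unadjusted p = 0.0626, adjusted p = 0.848). For open-arm time the slope was -0.24 (SE 0.17), and it was -0.43 without mouse 6 and -0.097 without mouse 9. For entries it was -0.18 (SE 0.20), and it ran from -0.085 without mouse 2 to -0.28 without mouse 1, with -0.10 without mouse 9 or mouse 12. Mouse 6 stood apart in this relation. It spent 46.6% of its time in the light, the most of all mice, and had 164 CPM of Cacna1a, while the other more anxious mice spent 12.4 to 20.9% there. Among the other 10 mice, Cacna1a was 255, 174, 125, 142, 106, 105, 90.9, 79.5, 71.8 and 53.0 CPM in order of rising light time, from 12.4% to 33.5%. In 44 of the 45 pairs of these mice, the one with less time in the light had the higher Cacna1a level, and with mouse 6 this held in 46 of 55 pairs. Without mouse 6 the slope was -0.63 per SD of the other 10 mice (SE 0.06, adjusted p = 0.00142 in edgeR's test). It is not in the unit of the slope of -0.20. In that fit, 0 of the other genes had a smaller p. Mouse 6 was singled out after its values were seen, so the pairs and the p without it cannot test the relation. With all 11 mice the unadjusted p was 0.242 in edgeR's test, and 5740 genes had a smaller one. With mouse 5 included the slope was -0.14 (unadjusted p = 0.423, edgeR). In the fit without mouse 6, 0.06% of all genes were called for light time. At an unadjusted p under 0.05, 2697 genes then passed, 4 of them members, against 958 genes and 0 members with all 11 mice. For light distance, the slope without mouse 6 was -0.62 (SE 0.08, adjusted p = 0.0250 in edgeR's test), with 0.0525% of all genes called. There, 1 gene had a smaller p, and 2876 genes, 3 of them members, had an unadjusted p under 0.05. With all 11 mice these were 1565 genes and 0 members. Without mouse 9 the slopes were -0.057 for light time and -0.19 for light distance. With the 11 mice together, neither slope passed. The labels also give mouse 6 the highest light distance (41.9%) and open-arm time (29.2%) of all mice. The other more anxious mice had 16.6 to 26.1% and 2.33 to 4.30%. Its light and open-arm values were thus the least anxious-like of the series, although it is labelled more anxious. Mouse 5, which has no group, spent 12.1% of its time in the light, less than any other mouse, and its Cacna1a level was 67.1 CPM, close to the low end.

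**Figure D5:**
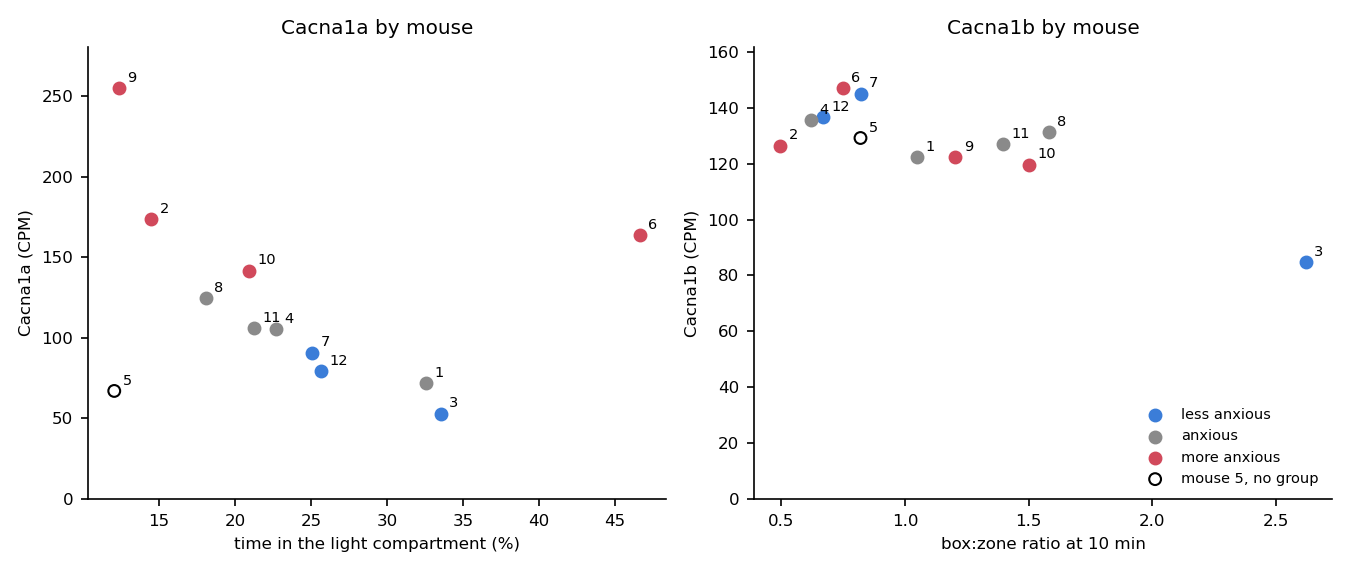
Left, Cacna1a (CPM, y axis from 0) against the percentage of time in the light compartment. Right, Cacna1b (CPM) against the box:zone ratio at 10 min. Each point is a mouse, numbered and colored by group, and mouse 5 is the open circle. On the left, mouse 6 (46.6%, 164 CPM) and mouse 5 (12.1%, 67.1 CPM) lie off the order of the other mice, and on the right mouse 3 (2.62, 84.8 CPM) lies far from the rest.

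Cacna1b and Cacna1c had slopes below 0 on the box:zone ratio, and their size depended on mouse 3. The slope of Cacna1b was -0.14 at 3 min (SE 0.05, unadjusted p = 0.0172, edgeR), -0.16 at 5 min (SE 0.05, unadjusted p = 0.00458, edgeR) and -0.18 at 10 min (SE 0.04, unadjusted p = 0.000941, edgeR). At 10 min the adjusted p was 0.307 in edgeR and 0.0348 in DESeq2. The slope of Cacna1c was -0.13 at 5 min (SE 0.05, unadjusted p = 0.0144, edgeR) and -0.13 at 10 min (SE 0.05, unadjusted p = 0.0142, edgeR). Mouse 3, of the less anxious group, had the highest ratio (2.62, against at most 1.58 in the other grouped mice) and the lowest level of both genes (84.8 and 80.6 CPM). Without mouse 3, and per SD of the mice left, the slopes of Cacna1b were -0.075, -0.045 and -0.052 at the 3 times, from first to last. Those of Cacna1c were then -0.045 at 5 min and -0.031 at 10 min. All of these stayed below 0 with an unadjusted p over 0.05, and at 10 min the adjusted p of both genes was 0.999 in edgeR's test. Mouse 3 was singled out after its values were seen, so the fits without it cannot test what the slopes rest on. Mouse 5, with a ratio of 0.819, had 129 CPM of Cacna1b and 84.6 CPM of Cacna1c. Its levels of Cacna1h (54.3 CPM) and Cacna1i (31.0 CPM) were the lowest and its level of Cacna1e (494 CPM) the highest of the 12 mice.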

How the data were processed

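Amygdala mRNA of 12 mice was sequenced on a single run. The authors used STAR and mm10 to check quality, quantified transcripts by Salmon, collapsed them to genes by tximport and deposited estimated counts (expected counts), whole and not normalized, for 47729 genes. Tool versions are not given in the sources used here. Gene names, exon lengths and GC content (of the longest transcript, in place of merged exons) came from GENCODE M21, which held 47310 of the genes. Members and lists were chosen with earlier results of these data known. Genes with at least 10 reads in total were tested with edgeR 4.0.16 in R 4.3.3 (TMM factors, robust quasi-likelihood F-test) over 11 mice. PC1 of variance-stabilized counts was a covariate for the groups, kept from the 11 mice where one was left out, and none was used for behavior. A Benjamini-Hochberg adjusted p under 0.05 counted as a call. CPM of mouse 5 used factors from all 12 mice. DESeq2 1.42.0 was the alternative test, and others changed size factors, filters, the covariate, GC offset, coding and mice. The named genes were the members, Cacna1f and Cacna1s, the pair with the lowest p for any change in each partner list and the 3 genes most like each member. Procedures were tested on simulated data. No 2 libraries agreed within sampling noise (mean chi-square per gene at least 17.5 over 66 pairs). The labels give a litter, cage or culture for no mouse, so p-values measure the spread between these animals. Intervals cover the spread between mice, and counting error is small at these depths.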

Additional observations from a re-analysis of the deposited data

Results flagged for a closer look

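Among 18 groups of 4 mice (the anxious and more anxious groups, for each member's CPM and for the ratio of Cacna1a to Cacna1b), 1 held a mouse far from the others. Cacna1g was at 122 CPM in mouse 4 of the anxious group, where the next highest mouse had 110 CPM, and the gap made up 0.843 of the group's range against a critical value of 0.829. Chance flags about 1 in 20 such groups.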

How the results depend on the processing

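No paired analysis was possible because the labels give the mice no replicate numbers that the groups share, and each mouse belongs to 1 group. The count of members called was 0 in edgeR and 1 in DESeq2 for any change across the groups, for more against less anxious, for more anxious against anxious (Cacna1a each time) and for the 10-min box:zone ratio (Cacna1b, adjusted p = 0.0348). Leaving out each mouse in turn gave 0 to 1 members for light time and for light distance (Cacna1a, without mouse 6) and 0 for every other comparison. The change of Cacna1a from less to more anxious kept its direction under all alternatives, from 1.17 to 1.302, and from 0.98 to 1.40 with a mouse left out. Its adjusted p was 0.110 to 0.353 in edgeR with a mouse left out. With a mouse left out, the change from less to more anxious ranged from -0.11 to 0.15 for Cacna1b and from -0.033 to 0.17 for Cacna1c, below 0 without mouse 3. The slopes of Cacna1a on the box:zone ratio ranged from -0.093 to 0.37 at 3 min (below 0 without mouse 9), from -0.26 to 0.13 at 5 min and from -0.33 to 0.059 at 10 min (both above 0 without mouse 3). The cause of these sign changes was not tested, and each slope is per SD of the mice in its own fit. The correlations with a mouse left out and the ratio with a mouse left out were added after seeing the data. Of 80 member values, 39 exceeded their SE, and 3 of 727 alternative values of these changed sign, against 80 of 769 for the smaller ones.

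Counts over all genes moved more. For more against less anxious, 12 genes were called, against 25 with any read as the filter, 0 with filterByExpr, 2 without robust estimates, 4 with the GC offset, 3 without the covariate, 300 in DESeq2, and 0 to 24 with a mouse left out (0 without mouse 3, 24 without mouse 6). For any change the 2 calls became 9, 0, 1, 2, 0 and 205 under the same settings, 22 with group order as a number, and 0 to 4 with a mouse left out.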
